A study of Oryza sativa with 12 samples.

Results

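Nitrogen assimilation genes were followed in rice leaves by RNA-Seq. The list held 10 rice locus IDs with the names given to them in it, namely a nitrate transporter (NRT1.1B), 2 nitrate reductases, 1 nitrite reductase, 3 glutamine synthetases (GS1;1, GS1;2 and GS2), 2 glutamate synthases (Fd-GOGAT and NADH-GOGAT1) and 1 asparagine synthetase. The list was fixed by ID, with no threshold on the measured values, but it was chosen with earlier results of these data known. Of these, 9 are among the 36844 features of the count table, and all 9 were tested. NADH-GOGAT1 (Os01g0681900) was not analysed here. The table pairs no ID with a gene name, so each name below rests on the list. NRT1.1B is a transporter, and the other 8 members are enzymes.

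The leaves came from OLESA, a salt-sensitive *japonica* cultivar coded PL12 by the submitters, and from IL22, a salt-tolerant introgression line. IL22 is a single backcross-derived line with segments of the *indica* donor FL478 in the OLESA background, so a difference between the genotypes cannot be assigned to one segment. Seedlings were pregerminated for 7 days and grown for 7 days in a nutrient solution that contains both ammonium and nitrate. They were then left untreated (control) or exposed to 80 mM NaCl during 24 h (salt). Each of the 4 groups had 3 libraries, each from the pooled leaves of 4 plants, and p-values cover the spread between these pools.

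Plants reduce nitrate to nitrite in the cytosol with nitrate reductase, and nitrite to ammonium in the plastid with nitrite reductase. Glutamine synthetase joins ammonium to glutamate, with GS1 forms in the cytosol and GS2 in the chloroplast, and glutamate synthase passes the amide group on to form glutamate. In leaves, GS2 and Fd-GOGAT also recover the ammonium that photorespiration releases. Asparagine synthetase stores nitrogen as asparagine. In many plants, nitrate reductase and nitrite reductase genes respond to nitrate, light and sugars.

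Library totals ranged from 11505396 to 23578477 counts, and 20760 features passed the filter on low counts. Leaf identity was checked with 5 IDs listed as nuclear genes of photosynthesis, which together reached 35964 to 105860 CPM (counts scaled to a common library size) in every library. A list of 2 root IDs summed to at most 0.856 CPM, with 1 of them at 0 throughout. IL22 control replicate 1 stood apart from its group. Across tested features its log2 CPM correlated with r = 0.942 and 0.937 with IL22 control replicates 2 and 3, which reached r = 0.966 with each other, while with OLESA control replicate 2 it reached r = 0.965. Without this library, 4000 features were called between the genotypes in control, against 286 with it. Results that rest on it are therefore also given without it.

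In OLESA, salt lowered 4 of the 9 members and raised 1, whereas in IL22 it lowered 2 and raised none. A member was called when the adjusted p of edgeR's quasi-likelihood test (Benjamini-Hochberg over all tested features) was at most 0.05 and the log2 fold change (FC) lay beyond 0.5. In OLESA, 9.89% of all tested features were called lower and 11.7% higher under salt, so 1 raised member among 9 is close to the background. In IL22, 2.25% were lower and 2.92% higher. Without IL22 control replicate 1, the features called in either direction for salt in IL22 went from 5.17% to 14.7%, and the members called from 2 to 3. For salt in OLESA they went from 21.6% to 27.5%, and the members called from 5 to 6. The median log2 FC of the members under salt was -0.88 in OLESA and -0.31 in IL22, beside medians over all tested features of 0.01 and -0.03. In bulk leaf RNA, fewer cells of a type and less RNA per cell cannot be told apart.

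Between the genotypes, 3 members were lower in IL22 than in OLESA in control and 2 were lower in salt, with none higher in either condition. Over all tested features, 0.756% were lower and 0.621% higher in IL22 in control. In salt, 1.65% were lower and 1.2% higher. Without IL22 control replicate 1, the features called in either direction went from 1.38% to 18.9% in control. In salt they went from 2.85% to 8.44%, and the members called stayed at 3 and 2. In control, no member was called without OLESA control replicate 3, IL22 control replicate 2 or IL22 control replicate 3 (0.872%, 0.741% and 0.803% of all features). In the full data, the members called lower in control were both nitrate reductases and nitrite reductase. In salt they were the chromosome 8 nitrate reductase and nitrite reductase. Nitrite reductase is listed in an *indica* block, where 36% of its 50 nearest tested IDs were called in control and 38% in salt. The shares over all features are therefore not its local background. Among the 9 members, no glutamine synthetase, glutamate synthase or asparagine synthetase was called between the genotypes in either condition. The mean level was highest in OLESA control in 6 of the 9 members, but for NRT1.1B, GS1;1 and GS2 this group overlapped the next. The same share over all tested features was not counted, so this order is only a description.

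**Figure D1:**
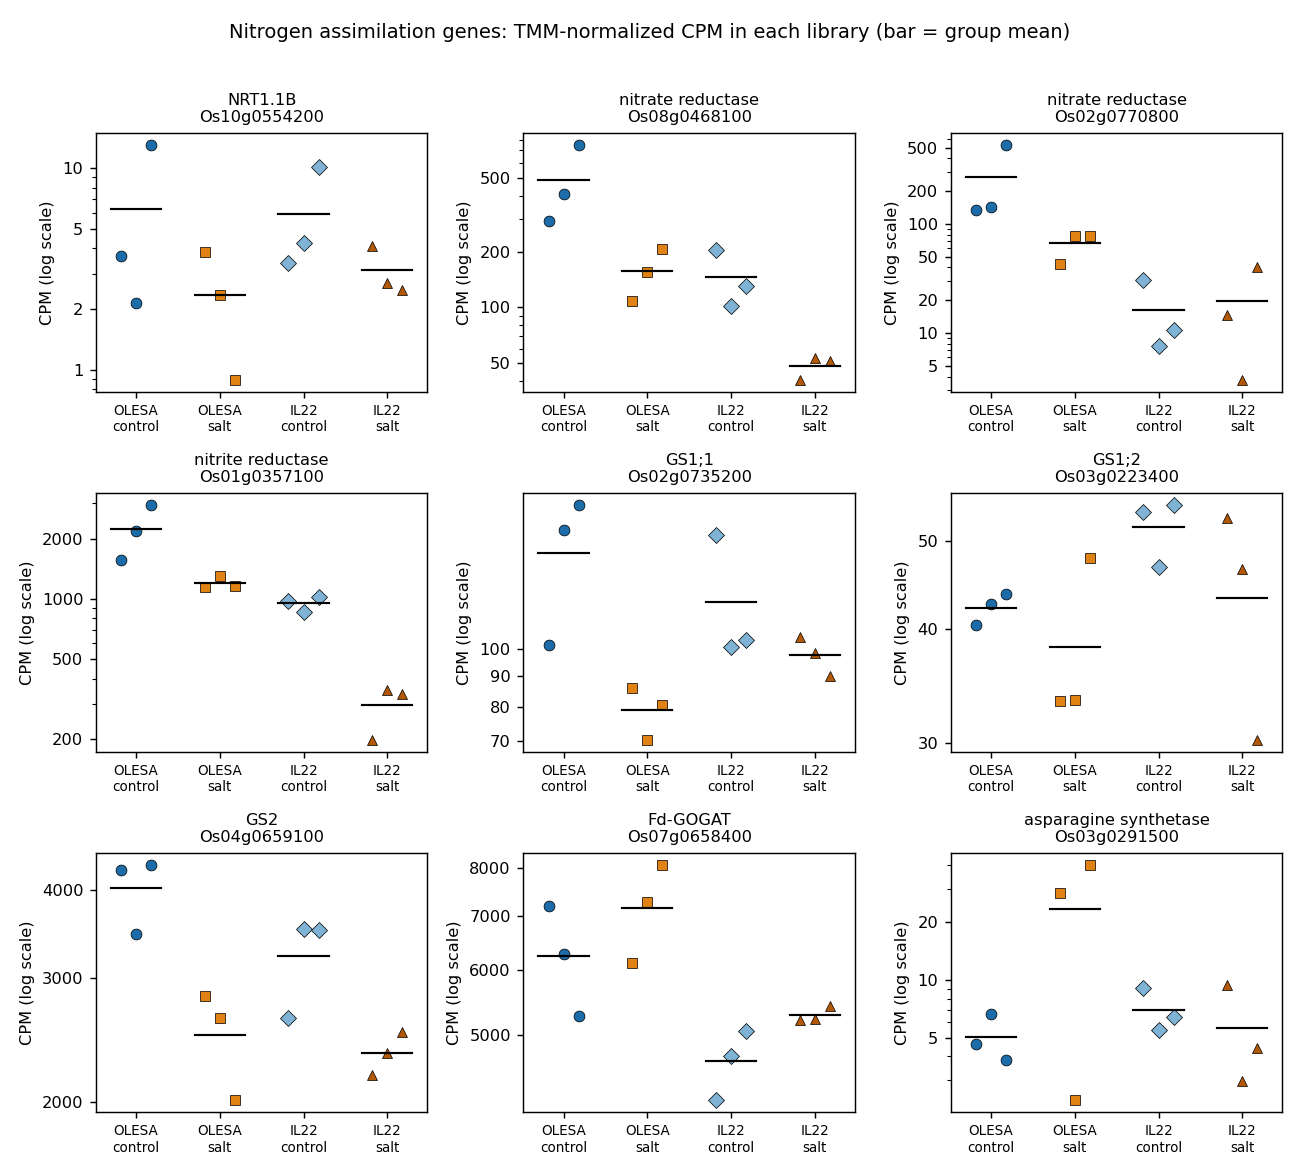
TMM-normalized CPM (log axis, a different range in each panel) of the 9 genes in each library, with circles for OLESA control, squares for OLESA salt, diamonds for IL22 control, triangles for IL22 salt and bars for the mean of 3 libraries. The 4 groups of nitrite reductase do not overlap and descend from OLESA control (1573 to 2949 CPM) to IL22 salt (198 to 349 CPM), whereas the asparagine synthetase groups overlap because OLESA salt replicate 2 sits at 2.36 CPM.

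**Figure D2:**
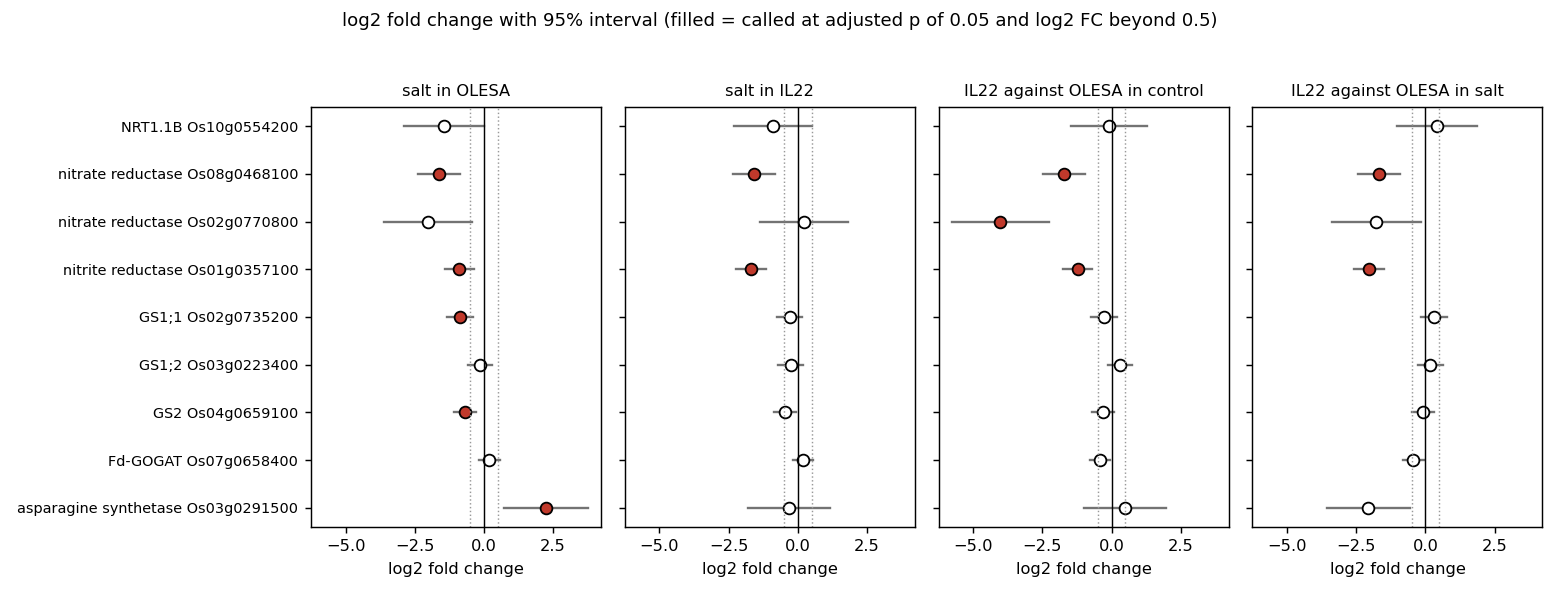
Log2 FC (horizontal axis) of each gene in 4 comparisons, with the 95% interval as a line, filled points for called genes and dotted lines at a log2 FC of 0.5 in either direction. The called values lie at the nitrate reductase Os08g0468100 and nitrite reductase in every comparison. The nitrate reductase Os02g0770800 is called only for IL22 against OLESA in control. GS1;1, GS2 and asparagine synthetase are called only for salt in OLESA.

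NRT1.1B (Os10g0554200), which moves nitrate across the plasma membrane, had few counts, from 20 to 260 per library. Its levels in OLESA were 3.68, 2.14 and 13.1 CPM in control and 3.82, 2.36 and 0.892 CPM in salt (replicates 1, 2 and 3, as in all such lists below). In IL22 they were 3.37, 4.25 and 10.1 CPM in control and 4.13, 2.71 and 2.49 CPM in salt. Replicate 3 was the highest of both control groups, and all neighbouring groups overlapped. No comparison was called. The log2 FC under salt was -1.44 (SE 0.67, adjusted p = 0.133) in OLESA and -0.91 (SE 0.65, adjusted p = 0.459) in IL22. Without OLESA control replicate 3, the value in OLESA was -0.33 (adjusted p = 0.741).

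The nitrate reductase on chromosome 8 (Os08g0468100) was lower under salt in both genotypes and lower in IL22 than in OLESA in both conditions. In OLESA it reached 291, 409 and 751 CPM in control and 109, 154 and 206 CPM in salt. In IL22 it reached 205, 101 and 131 CPM in control and 40.8, 53.3 and 51.5 CPM in salt. All libraries of OLESA control lay above all others and all of IL22 salt lay below all others, whereas OLESA salt and IL22 control overlapped, with means of 156 ± 48.4 and 146 ± 53.2 CPM (SD, n = 3).

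Salt lowered this gene 3.10-fold in OLESA (log2 FC -1.63, SE 0.35, adjusted p = 0.00777) and 3.01-fold in IL22 (log2 FC -1.59, SE 0.35, adjusted p = 0.0210). The responses differed by 0.04 on the log2 scale, with a 95% interval from -1.0 to 1.09, so a difference of about that size in either direction could be present. Without IL22 control replicate 1, the log2 FC in IL22 was -1.26 (adjusted p = 0.0278). The difference between the responses was then 0.37 (adjusted p = 0.603), so the near-equal folds rest in part on that library. The fall in OLESA was called under all 20 alternative settings. The fall in IL22 lost its call when any 1 of the IL22 salt libraries was left out (adjusted p = 0.102, 0.0653 and 0.0604 without replicate 1, 2 and 3).

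Relative to OLESA, the chromosome 8 gene was 3.32-fold lower in IL22 in control (log2 FC -1.73, SE 0.35, adjusted p = 0.0255) and 3.22-fold lower in salt (log2 FC -1.69, SE 0.35, adjusted p = 0.0224). The call in control was lost in 6 of 20 alternative settings, among them those without OLESA control replicate 2 or 3 (adjusted p = 0.0554 and 0.105), without IL22 control replicate 2 or 3 (0.155 and 0.135) and when only the 6 control libraries were fitted (0.116). Without IL22 control replicate 1, which was the highest of its group, the log2 FC was -2.06 (adjusted p = 0.00323). The call in salt was lost without OLESA salt replicate 2 or 3 (0.0624 and 0.0570) or without IL22 salt replicate 1, 2 or 3 (0.118, 0.0724 and 0.0850). The direction was the same in all of these fits.

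The nitrate reductase on chromosome 2 (Os02g0770800) showed the largest difference between the genotypes in control among the 9 members tested. In OLESA it stood at 134, 143 and 531 CPM in control and at 43.1, 78.0 and 77.7 CPM in salt. In IL22 it stood at 30.8, 7.70 and 10.8 CPM in control and at 14.6, 3.74 and 40.2 CPM in salt. Every OLESA library exceeded every IL22 library, and within IL22 the control and salt libraries overlapped.

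In control, this second nitrate reductase was 16.2-fold lower in IL22 (log2 FC -4.02, SE 0.81, adjusted p = 0.0255), and its 95% interval ran from -5.78 to -2.27. The call was lost without OLESA control replicate 3, its highest library (log2 FC -3.07, adjusted p = 0.10), and without IL22 control replicate 2 or 3 (adjusted p = 0.155 and 0.146). Without IL22 control replicate 1, the log2 FC was -4.86 (adjusted p = 0.00424). In salt the groups did not overlap, but the log2 FC of -1.77 (SE 0.75) was not called (adjusted p = 0.204).

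Salt gave this gene a log2 FC of -2.03 in OLESA (SE 0.74, adjusted p = 0.0658), which was not called although the groups did not overlap. It was called in 6 of 20 alternative settings, among them the fit without IL22 control replicate 1 (adjusted p = 0.0372). Without OLESA control replicate 3 the log2 FC was -1.08 (adjusted p = 0.325). In IL22 the log2 FC was 0.22 (SE 0.74, adjusted p = 0.894). The difference between the responses was 2.25 (SE 1.04, adjusted p = 0.202), and 3.09 without IL22 control replicate 1 (adjusted p = 0.0497).

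Nitrite reductase (Os01g0357100), the next enzyme of the pathway, was the only member whose 4 groups were all separate. The share of all tested features with 4 separate groups was not counted, so this is only a description. Nitrite reductase had 1573, 2173 and 2949 CPM in OLESA control and 1145, 1308 and 1158 CPM in OLESA salt. It had 974, 863 and 1023 CPM in IL22 control and 198, 349 and 335 CPM in IL22 salt. The untreated IL22 libraries thus lay below the salt-treated OLESA libraries, with means of 953 ± 82.0 and 1204 ± 90.6 CPM (SD, n = 3), and salt-treated IL22 lay below both.

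Salt lowered nitrite reductase 3.24-fold in IL22 (log2 FC -1.70, SE 0.25, adjusted p = 0.00262), a call kept in all 20 alternative settings. In OLESA it lowered it 1.85-fold (log2 FC -0.89, SE 0.24, adjusted p = 0.0222). This second call was lost without OLESA control replicate 2 or 3 (adjusted p = 0.0593 and 0.0903) and without OLESA salt replicate 1 or 3 (0.0662 and 0.0508). The difference between the responses was -0.81 (SE 0.34, 95% interval -1.55 to -0.07). It was not called after adjustment (adjusted p = 0.167), so the larger fall in IL22 is not shown to differ from that in OLESA.

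Relative to OLESA, nitrite reductase was 4.09-fold lower in IL22 in salt (log2 FC -2.03, SE 0.25, adjusted p = 0.000482), and this held in all 20 alternative settings. In control it was 2.34-fold lower (log2 FC -1.23, SE 0.25, adjusted p = 0.0241). The call in control was lost without OLESA control replicate 2 or 3 (adjusted p = 0.0763 and 0.10), without IL22 control replicate 2 or 3 (0.146 and 0.0842) and in the fit of the 6 control libraries (0.0901). Without IL22 control replicate 1 it was -1.25 (adjusted p = 0.0101).

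Nitrite reductase is listed as lying in the second *indica* block of chromosome 1 in IL22, and the neighbouring IDs are described beside it. The part of the block in its genotype difference was not tested. Among the 50 tested IDs nearest to it in ID order, 25 on each side (Os01g0346400 to Os01g0364100), 18 were called between the genotypes in control (36%) and 19 in salt (38%). Of these, 13 and 15, respectively, were lower in IL22. In control 17 neighbours had a lower log2 FC than nitrite reductase itself, and in salt 15 did. Around each of the other 8 members, 0 or 1 of 50 neighbours was called in control, and 0 to 2 in salt. IL22 fragments from an *indica* segment were counted on *japonica* gene models. For this gene, a lower transcript level and a loss of fragments in alignment therefore cannot be told apart. The salt response within IL22 compares the same alleles in both groups.

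**Figure D3:**
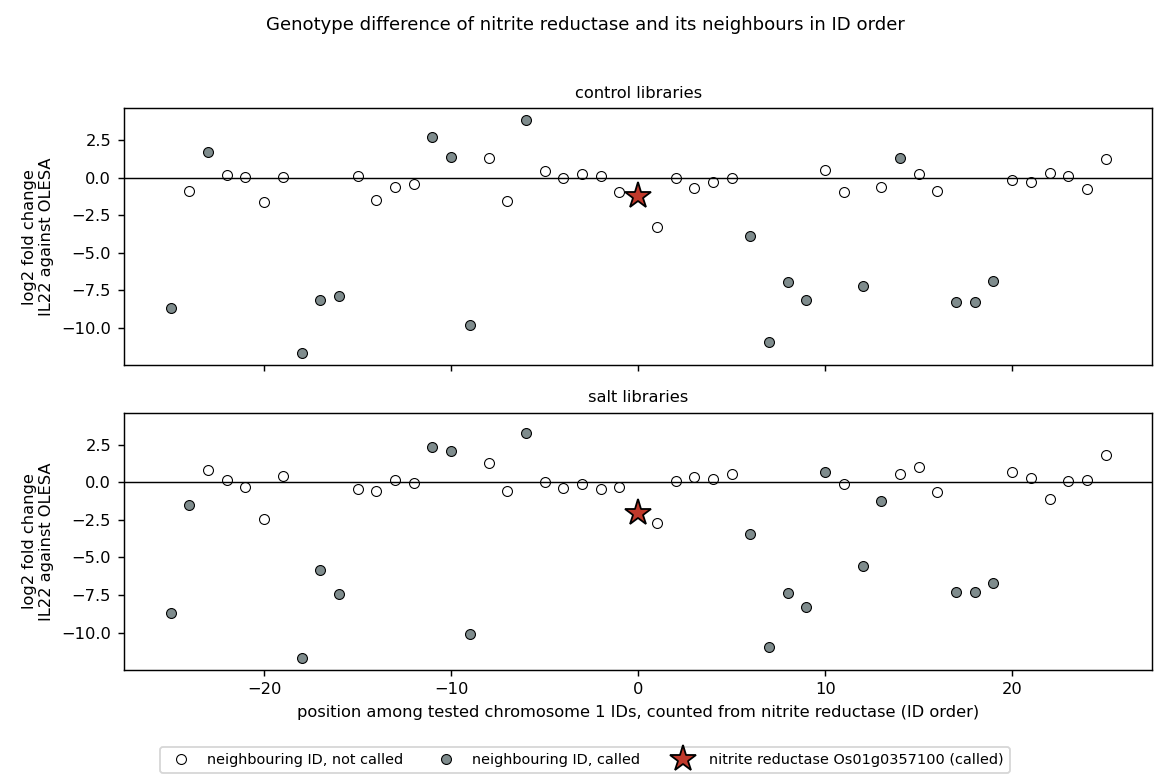
Log2 FC of IL22 against OLESA (vertical axis) for nitrite reductase (star) and the 25 tested chromosome 1 IDs on each side of it in ID order (horizontal axis, in positions, not bases), in control (upper panel) and salt (lower panel). Filled circles mark the 18 and 19 neighbours that were called, most of them below 0.

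Over the 12 libraries, which share the 4 groups, the member most like nitrite reductase in log2 CPM was the chromosome 8 nitrate reductase (Pearson r = 0.94), and r was 0.68 for the deviations from the group means. The member most like the chromosome 2 nitrate reductase was also the chromosome 8 gene (r = 0.81, and 0.60 within groups). Nitrite reductase and the chromosome 2 nitrate reductase had r = 0.73, and 0.27 within groups. Outside the list, the features most like nitrite reductase were Os04g0663700 (r = 0.95) and Os12g0406200 (r = 0.95). Os04g0663700 ranged from 26.0 to 35 CPM in OLESA control and from 13.2 to 15 CPM in IL22 salt. Os12g0406200 ranged from 94.7 to 104 CPM and from 55.4 to 64.0 CPM in the same groups. These correlations describe 12 libraries of known groups and were not tested.

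Within each library, the log2 ratio of nitrite reductase counts to chromosome 8 nitrate reductase counts averaged 2.27 ± 0.26 in OLESA control and 2.99 ± 0.46 in OLESA salt (SD, n = 3). In IL22 it averaged 2.77 ± 0.45 in control and 2.56 ± 0.25 in salt. The salt and control libraries were separate in OLESA and overlapped in IL22.

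GS1;1 (Os02g0735200), a cytosolic glutamine synthetase, was at 102, 159 and 175 CPM in OLESA control and at 86.0, 70.4 and 80.5 CPM in OLESA salt. In IL22 it was at 156, 101 and 104 CPM in control and at 105, 98.7 and 90.0 CPM in salt. The salt libraries of OLESA were the lowest of all 12, and the IL22 groups overlapped. Salt lowered GS1;1 1.84-fold in OLESA (log2 FC -0.88, SE 0.22, adjusted p = 0.0147). The call was lost without OLESA control replicate 2 or 3 (adjusted p = 0.0585 and 0.0586) and without OLESA salt replicate 2 (0.0537).

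In IL22 the log2 FC of GS1;1 under salt was -0.30 (SE 0.22, adjusted p = 0.465). The responses differed by 0.58 (SE 0.30, 95% interval -0.07 to 1.24, adjusted p = 0.253), and by 0.82 without IL22 control replicate 1, the highest of its group (adjusted p = 0.0447). In salt, the GS1;1 libraries of IL22 lay above those of OLESA, with a log2 FC of 0.31 (SE 0.22) that was not called (adjusted p = 0.445).

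GS1;2 (Os03g0223400), the other cytosolic form on the list, was called in no comparison. Its levels were 40.4, 42.6 and 43.7 CPM in OLESA control and 33.4, 33.5 and 47.8 CPM in OLESA salt. They were 53.8, 46.9 and 54.7 CPM in IL22 control and 52.9, 46.6 and 30.3 CPM in IL22 salt. In control every IL22 library lay above every OLESA library (log2 FC 0.30, SE 0.21, adjusted p = 0.455). Under salt the log2 FC was -0.14 in OLESA (adjusted p = 0.649) and -0.26 in IL22 (adjusted p = 0.510). The log2 ratio of GS1;1 to GS1;2 counts averaged 1.74 ± 0.36 in OLESA control and 1.06 ± 0.31 in OLESA salt, and 1.19 ± 0.31 and 1.21 ± 0.31 in the corresponding IL22 groups (SD, n = 3).

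GS2 (Os04g0659100), the chloroplast form, had 4266, 3468 and 4335 CPM in OLESA control and 2833, 2631 and 2016 CPM in OLESA salt. It had 2635, 3515 and 3512 CPM in IL22 control and 2188, 2353 and 2515 CPM in IL22 salt. Control and salt libraries were separate in both genotypes. Salt lowered GS2 1.61-fold in OLESA (log2 FC -0.69, SE 0.18, adjusted p = 0.0198). The call was lost without OLESA control replicate 3 (adjusted p = 0.0536) or OLESA salt replicate 3 (0.0504).

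In IL22 the log2 FC of GS2 under salt was -0.45 (SE 0.18, adjusted p = 0.175). Without IL22 control replicate 1, the lowest of its group, it was -0.58 and was called (adjusted p = 0.0488). The responses differed by 0.24, with a 95% interval from -0.32 to 0.79. The summed level of the 5 photosynthesis IDs moved in the same direction, from 73748 to 105860 CPM in OLESA control to between 35964 and 55844 CPM in OLESA salt. In IL22 it ran from 69767 to 73174 CPM in control and from 39990 to 50550 CPM in salt. Its part in the GS2 values was not tested.

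Fd-GOGAT (Os07g0658400), the ferredoxin-dependent glutamate synthase of the chloroplast, was not lower under salt. It had 7193, 6290 and 5284 CPM in OLESA control and 6118, 7279 and 8075 CPM in OLESA salt. It had 4164, 4717 and 5058 CPM in IL22 control and 5221, 5232 and 5427 CPM in IL22 salt. The log2 FC under salt was 0.19 in both OLESA (SE 0.17, adjusted p = 0.436) and IL22 (SE 0.17, adjusted p = 0.574), and in IL22 all salt libraries lay above all control libraries.

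In both conditions, every IL22 library had less Fd-GOGAT than every OLESA library, but neither difference was called. The log2 FC was -0.43 in control (SE 0.17, adjusted p = 0.212) and -0.44 in salt (SE 0.17, adjusted p = 0.179). The direction was the same in all alternative settings. The log2 FC of the comparison in control stayed between -0.55 and -0.32 in them, and that of the comparison in salt between -0.55 and -0.34.

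The balance of the chloroplast pair differed between salt and control libraries. The log2 ratio of Fd-GOGAT to GS2 counts was 0.75, 0.86 and 0.29 in OLESA control and 1.11, 1.47 and 2.00 in OLESA salt. In IL22 it was 0.66, 0.42 and 0.53 in control and 1.25, 1.15 and 1.11 in salt. All 6 salt libraries lay above all 6 control libraries, whereas the genotypes overlapped in both conditions. This separation is given as a description and was not tested. The ratio is of counts and is not corrected for gene length, so only its shifts between libraries can be read.

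**Figure D4:**
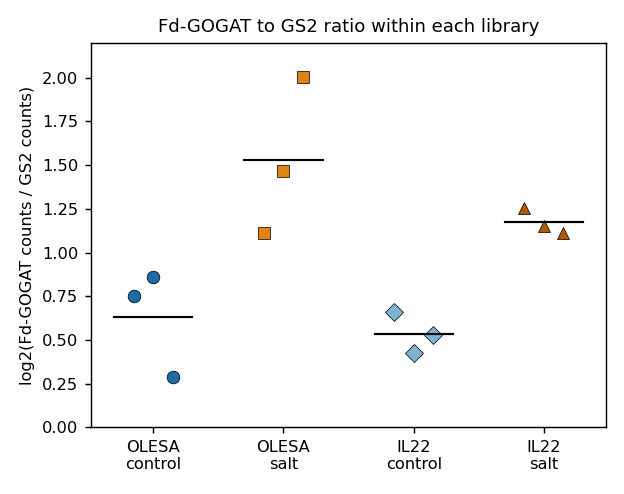
Log2 ratio of Fd-GOGAT counts to GS2 counts (vertical axis) in each library of the 4 groups, with bars for the mean of 3 libraries. The salt libraries lie between 1.11 and 2.00 and the control libraries between 0.29 and 0.86.

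Asparagine synthetase (Os03g0291500) had 4.63, 6.63 and 3.82 CPM in OLESA control and 28.4, 2.36 and 39.9 CPM in OLESA salt. It had 9.12, 5.46 and 6.39 CPM in IL22 control and 9.43, 2.97 and 4.43 CPM in IL22 salt. In salt-treated OLESA, replicates 1 and 3 were the highest of all libraries and replicate 2 was the lowest, with 28 counts. The group therefore overlapped all others. Its rise in OLESA was called all the same (4.73-fold, log2 FC 2.24, SE 0.70, adjusted p = 0.0370).

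That call was lost in 7 of 20 alternative settings. Among these were the fits without OLESA control replicate 1, 2 or 3 (adjusted p = 0.0844, 0.0797 and 0.124), without OLESA salt replicate 1 or 3 (0.0871 and 0.127) and with the 6 OLESA libraries alone (0.0537). In IL22 the log2 FC under salt was -0.31 (SE 0.69, adjusted p = 0.837). The responses differed by -2.55 (SE 0.97, 95% interval -4.65 to -0.45), which was not called (adjusted p = 0.129). In salt, the log2 FC of IL22 against OLESA was -2.06 (SE 0.69, adjusted p = 0.123). It became -2.60 with a call when OLESA salt replicate 2 was left out (adjusted p = 0.00751).

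No member was called for the interaction, the test of whether salt changed a gene unequally in IL22 and OLESA. Over all tested features, 4.99% were called for it. At an unadjusted p under 0.05 there were 3 members (the chromosome 2 nitrate reductase, nitrite reductase and asparagine synthetase) of 9, beside 24.7% of all tested features. DESeq2 and edgeR's likelihood ratio test also called 0 members, beside 12% and 10.7% of all tested features. Without IL22 control replicate 1, 2 members were called, namely the chromosome 2 nitrate reductase and GS1;1, as given above, beside 23.3% of all tested features.

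A further 20 IDs for nitrogen uptake and assimilation, compiled from general knowledge of the rice annotation, were examined beside the members. All 20 are in the table and 14 were tested. The table does not name them, so only IDs are given. In OLESA, 2 were raised and 1 was lowered by salt, and 11 were not called. Over all tested features, 11.7% were higher and 9.89% lower, so these counts are close to the background. In IL22, 1 was raised, 1 was lowered and 12 were not called, beside 2.92% higher and 2.25% lower. Relative to OLESA, 1 was higher in IL22 in control and 2 were higher in salt, with none lower. The shares of all tested features higher in IL22 were 0.621% in control and 1.2% in salt. For the interaction 1 was called, beside 4.99% of all tested features.

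Os05g0555600 rose under salt in IL22. Its level was 84.7, 93.9 and 45.9 CPM in OLESA control and 109, 118 and 119 CPM in OLESA salt. It was 70.7, 74.9 and 91.5 CPM in IL22 control and 398, 338 and 266 CPM in IL22 salt. Every salt-treated IL22 library exceeded every other library. The log2 FC under salt was 2.08 in IL22 (SE 0.24, adjusted p = 0.000951), and 0.62 in OLESA (SE 0.24, adjusted p = 0.0722), where the groups were also separate. In salt it was higher in IL22 than in OLESA (log2 FC 1.54, SE 0.24, adjusted p = 0.00335).

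The responses of Os05g0555600 differed by 1.46 (SE 0.33, adjusted p = 0.0357). This call was lost in 10 of 19 alternative settings, among them those without OLESA control replicate 1 or 2 (adjusted p = 0.0527 and 0.0992), IL22 control replicate 2 or 3 (0.0973 and 0.0820), OLESA salt replicate 1 or 2 (0.0804 and 0.0814) or IL22 salt replicate 1, 2 or 3 (0.0957, 0.0763 and 0.0869). The difference stayed between 1.26 and 1.73 throughout, and without IL22 control replicate 1 its adjusted p was 0.0139.

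Os02g0765900 was higher in IL22 in both conditions and fell under salt in both genotypes. Its level was 3.82, 3.71 and 7.48 CPM in OLESA control and 0.684, 1.85 and 1.16 CPM in OLESA salt. It was 25.5, 18.9 and 17.9 CPM in IL22 control and 5.06, 7.99 and 7.32 CPM in IL22 salt. IL22 control was above all other libraries and OLESA salt below all others. The log2 FC of IL22 against OLESA was 2.04 in control (SE 0.35, adjusted p = 0.00740) and 2.49 in salt (SE 0.38, adjusted p = 0.00311). Under salt it was -2.07 in OLESA (SE 0.38, adjusted p = 0.00427) and -1.62 in IL22 (SE 0.34, adjusted p = 0.0164). The call in control was lost without OLESA control replicate 2 (0.0561), and that of salt in IL22 without IL22 salt replicate 1 (0.0911).

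Os08g0155400 rose under salt in OLESA, from 15.2, 14.2 and 21.5 CPM to 40.9, 64.1 and 63.4 CPM (log2 FC 1.72, SE 0.33, adjusted p = 0.00469). In IL22 its libraries overlapped, at 19.0, 31.1 and 41.4 CPM in control and 28.3, 50.4 and 24.6 CPM in salt (log2 FC 0.18, SE 0.32, adjusted p = 0.795). The responses differed by -1.54 (SE 0.45, adjusted p = 0.0655), which was called in 4 of 19 alternative settings. Among these was the fit without IL22 control replicate 1 (-1.79, adjusted p = 0.00834). In control, the log2 FC of IL22 against OLESA was 0.84 (adjusted p = 0.198), and 1.09 without that library (adjusted p = 0.0264). Os03g0712800 had 0, 0 and 6 counts in OLESA control and 7, 13 and 44 counts in OLESA salt. Its rise in OLESA (log2 FC 3.25, SE 1.08, adjusted p = 0.0474) was lost in 9 of 19 alternative settings. In IL22 it had 1, 2 and 0 counts in control and 33, 30 and 3 counts in salt. The log2 FC there was 4.16 (SE 1.19, adjusted p = 0.0636), not called in the full data but called in 3 of 19 alternative settings. The responses differed by 0.92 (SE 1.69, adjusted p = 0.773), so no difference between the genotypes is shown.

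**Figure D5:**
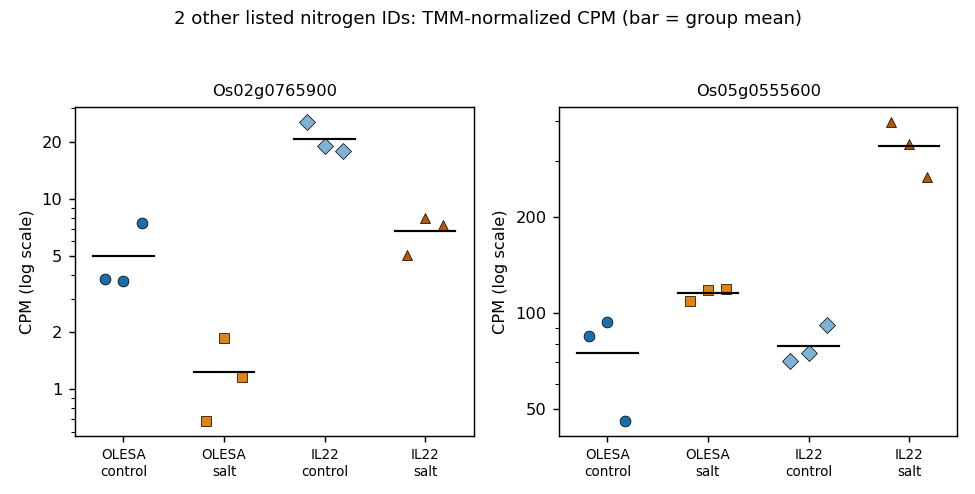
TMM-normalized CPM (log axis) of Os02g0765900 and Os05g0555600 in each library of the 4 groups, with bars for the mean of 3 libraries. Os02g0765900 is highest in IL22 control (17.9 to 25.5 CPM), and Os05g0555600 is highest in IL22 salt (266 to 398 CPM).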

How the data were processed

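Stranded mRNA libraries from leaves of 12 plant pools were sequenced. The authors deposited raw counts for each feature and library, without normalization. The submitters' processing notes name bcl2fastq 2.20, cutadapt 1.11, BBDuk, STAR 2.5.2b, featureCounts 1.5.1 and build IRGSP-1.0. The treatment of fragments matching more than 1 gene, and of strand in counting, was not given in the sources used here. Members with close copies, such as the nitrate reductases and GS1 genes, are uncertain.

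Counts were analysed with edgeR 4.0.16 in R 4.3.3. filterByExpr (minimum count 10, minimum total 15) kept 20760 features. TMM factors (0.845 to 1.12) and the quasi-likelihood fit covered all 12 libraries with 1 mean per group and no replicate block. Standard errors were derived from the F statistic. CPM were TMM-normalized, and correlations and figures used them, with a prior count of 2 for log2 CPM. The steps were tested on simulated data. The contrasts were salt against control in each genotype, IL22 against OLESA in each condition, and the interaction, called at an adjusted p of 0.05 with no limit on log2 FC. Alternatives were RLE and upper-quartile factors, no filter, at least 1 CPM in 3 libraries, DESeq2 1.42.0, the likelihood ratio test, the 6 libraries compared, the replicate block, and leaving out each library.

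The members and lists were chosen with earlier results of these data known. All members were named, with the most correlated member of those discussed, the 2 features most like nitrite reductase, and other listed IDs by ID alone. The alternatives for these other IDs, and the values of those IDs printed, were chosen after seeing the data. Gene lengths, sequences and annotation of these IDs were not used here, so levels were not compared between genes. The IL22 and OLESA names of the labels define the groups, with PL12 taken as OLESA.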

Additional observations from a re-analysis of the deposited data

Results flagged for a closer look

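Os05g0555600, one of the other listed nitrogen IDs, was called for a difference in salt response between IL22 and OLESA by the test of the difference itself. Its salt log2 FC was 1.46 larger in IL22 than in OLESA (SE 0.33, adjusted p = 0.0357, edgeR quasi-likelihood test), with all 3 salt-treated IL22 libraries above every other library. The call was lost in 10 of 19 alternative settings, 9 of them fits without a single library (adjusted p from 0.0527 to 0.0992), with the difference between 1.26 and 1.73 throughout. What lies behind this difference was not tested.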

How the results depend on the processing

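Over 9 members, 5 comparisons and all alternatives, 891 values were obtained. Of these, 814 kept their direction and side of the threshold, 38 lost a call, 11 gained one and 28 changed sign with no call on either side, and none reversed a called direction. Only results called in the full data could lose a call, and the 814 include uncalled results that stayed uncalled. Of the lost calls, 16 were for salt in OLESA, 3 for salt in IL22, 14 between the genotypes in control and 5 in salt. Leaving out 1 library at a time, the number of members called ranged from 1 to 6 for salt in OLESA (5 in the full data), from 1 to 3 for salt in IL22 (2), from 0 to 3 for IL22 against OLESA in control (3), from 1 to 2 in salt (2) and from 0 to 2 for the interaction (0). It was 1 for salt in OLESA without OLESA control replicate 3, and 0 for the genotypes in control without OLESA control replicate 3, IL22 control replicate 2 or IL22 control replicate 3. The share of all features called moved as well in these fits, from 9.05% to 27.5% for salt in OLESA, from 1.64% to 14.7% for salt in IL22, from 0.741% to 18.9% between the genotypes in control, from 0.896% to 8.44% in salt and from 0.0891% to 23.3% for the interaction, with the highest share in each comparison without IL22 control replicate 1. With only the 6 libraries compared, 1 member was called between the genotypes in control (beside 0.794% of all features) and 2 in salt (7.51%). In such fits, 5 members were called for salt in OLESA (21.1%) and 2 for salt in IL22 (4.67%). Replicate numbers are shared between groups, but only 4 of 18 same-numbered pairs of libraries had deviations from their group means that correlated above 0.1 (r from -0.33 to 0.20), so they were not treated as pairs. With the replicate block, 4 members were called for salt in OLESA (beside 16.6% of all features), 2 for salt in IL22 (3.27%), 2 for the genotypes in control (0.939%), 2 in salt (1.63%) and 0 for the interaction (0.111%). The block ended the calls of the chromosome 8 nitrate reductase Os08g0468100 between the genotypes in control (adjusted p = 0.0594), of asparagine synthetase Os03g0291500 for salt in OLESA (0.0927), of Os03g0712800 for salt in OLESA (0.0771) and of Os05g0555600 for the interaction (0.0764). Over all features, DESeq2 called 1137 between the genotypes in control, against 286.

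With totals of 11505396 counts or more, NRT1.1B had as few as 20 counts in a library and asparagine synthetase 28. The widest intervals were those of the chromosome 2 nitrate reductase, with an SE of up to 0.81 between groups. With 3 libraries per group, uncalled members may still differ. Upper-quartile factors moved the median log2 FC of all features by less than 0.1.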
